A study of Mus musculus with 4 samples.

Results

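The genes described are Azgp1, Adgrg4, Tmem41b, Lhfpl1 and Wnt10a, 5 of the 37072 gene names on the array, taken with all of their 7 probes of 56605. They were selected on the size of the difference between vancomycin and saline in kidneys of mice injected at zeitgeber time 2 (ZT2), so the ZT2 values below are those that chose them and are given as a description, with no test. Total RNA from the kidney of ICR mice, an outbred strain, was measured on 4 Cy3 arrays. Mice received saline or vancomycin, injected at either ZT2 or ZT14, which makes 4 groups, and in each the kidney was taken 1 day after the injection. Vancomycin is a glycopeptide antibiotic that can injure the kidney. Each group had 1 array, so there is no replicate check and no p-value, and it is not stated if that array held RNA of 1 mouse or of several. Dose, sex and age are not given in the sources used here.

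The 5 genes do not form a pathway. Azgp1 encodes zinc-alpha-2-glycoprotein, a secreted protein with the fold of an MHC class I heavy chain that is known for its part in lipid mobilisation. Adgrg4 encodes an adhesion G protein-coupled receptor, a class of receptors with a long extracellular region. Tmem41b encodes a membrane protein of the endoplasmic reticulum that moves lipids between the leaflets of the membrane and is needed to form autophagosomes. Lhfpl1 encodes a tetraspan membrane protein of the LHFPL family. Wnt10a encodes a secreted Wnt ligand, which acts through Frizzled receptors and LRP co-receptors and is best known from teeth and skin appendages.

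The signals rest on 1 probe each for Azgp1, Lhfpl1 and Wnt10a and on 2 each for Adgrg4 and Tmem41b, and every probe had 1 spot per array. The first 30 of the 60 bases of each probe are shown, because 2 probes of a gene can read different stretches. Whether this bears on how well they agree was not tested. They are copied from the array files, as are the positions, whose build is mm9 per the file headers.
Azgp1: agactgagttcactctcaatgtcagatcaa
Adgrg4 probe 1: ctggactgggggaaatgttcaatttataaa
Adgrg4 probe 2: accttgtcaacaactgattcagaaatggca
Tmem41b probe 1: ggactaatccttctctgtcgcagtattaat
Tmem41b probe 2: taaagcagaagtttgagtgaaaagacatgg
Lhfpl1: gggtggagctgctgcagccatgttgatctg
Wnt10a: tttcacttaacagatatttatttttgcgct

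The Azgp1 probe (NM_013478) lay at chr5:138431245-138431304 and the Wnt10a probe (NM_009518) at chr1:74850633-74850692, both on the plus strand. The Lhfpl1 probe (NM_178358) lay at chrX:141725774-141725833 on the minus strand. Probe 1 of Adgrg4 (ENSMUST00000096431) lay at chrX:54233419-54233478 and probe 2 (ENSMUST00000168724) at chrX:54167069-54167128, 66.4 kb away on the same strand, and the files assign them to different transcripts. Both Tmem41b probes were assigned to NM_153525, with probe 1 at chr7:117117001-117117060 and probe 2 at chr7:117118256-117118315 on the minus strand. Their starts were 1255 bases apart on the chromosome and also 1255 bases apart in the transcript. An annotation of exons and UTRs in mm9 was not used here. The GC content was 35.0% for probe 1 of Adgrg4, probe 1 of Tmem41b and Wnt10a, 43.3% for Azgp1 and probe 2 of Adgrg4, 45.0% for probe 2 of Tmem41b and 55.0% for Lhfpl1. None of the 7 probes shared a run of 20 bases with any other probe of the array on either strand (0 such pairs).

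Of the 59305 spots, between 60.6% (vancomycin at ZT2) and 64.7% (saline at ZT14) were well above background, the scanner software's flag for a signal clear of the local background, and 0 were saturated. The lowest processed signal with that flag was 10.5 to 13.5 intensity units, depending on the array. All 16 markers of proximal tubule, distal nephron and podocyte that were looked at were well above background on all 4 arrays. The ZT2 arrays shared 1 slide and the ZT14 arrays a different one, so the effects of slide and of injection time cannot be told apart, and neither can those of treatment and of the position on the slide, which was the same for each treatment.

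Azgp1 had a processed signal of 15.9 ± 3.05 intensity units with saline at ZT2, 3802 ± 380 with vancomycin at ZT2, 11.6 ± 2.79 with saline at ZT14 and 23.6 ± 4.24 with vancomycin at ZT14, where ± is the scanner software's error for that spot and not a spread between animals. The vancomycin array at ZT2 alone was high. The other 3 values were close to the lowest signals that count as well above background, and that of saline at ZT14 was not well above it. Vancomycin minus saline, with each array scaled to its 75th percentile, was 8.06 ± 0.31 on the log2 scale at ZT2, or 267-fold higher, where ± combines the errors of both spots. With normexp background correction, which adds an offset to every signal, this difference was 5.68. At ZT14, on arrays that did not choose the gene, Azgp1 was higher by 1.08 ± 0.43 (2.12-fold), with saline not well above background. The saline signal still exceeded the lowest signal with that flag on its array, 11.3, so 1.08 is the measured difference and not a lower limit. This difference became 0.28 with normexp and 0.58 with a pseudocount of 16.

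Adgrg4 showed another pattern, with saline at ZT2 as the array that stood apart. Probe 1 read 18.4 ± 3.12 with saline at ZT2, 193 ± 19.5 with vancomycin at ZT2, 234 ± 23.6 with saline at ZT14 and 319 ± 32.1 with vancomycin at ZT14. The vancomycin value at ZT2 thus lay close to both ZT14 values, and the saline value at ZT2 was the low one. The ZT2 difference was 3.55 ± 0.28 (11.7-fold higher with vancomycin) and became 1.77 with normexp. Between the saline arrays, ZT14 exceeded ZT2 by 3.36 ± 0.28, a comparison that shares the saline ZT2 array with the one that chose the gene. At ZT14 the difference with vancomycin was 0.51 ± 0.21, or 1.42-fold. Probe 2 was not well above background on any of the 4 arrays, with 2.41, 2.52, 6.0 and 3.22 intensity units in the same order, so it gives no fold change to set beside that of probe 1.

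Tmem41b, Lhfpl1 and Wnt10a were each low on the vancomycin array at ZT2 and within 2-fold on the other 3. Probe 1 of Tmem41b read 1985 ± 199 with saline at ZT2, 35.0 ± 4.22 with vancomycin at ZT2, 3190 ± 319 with saline at ZT14 and 3276 ± 328 with vancomycin at ZT14. Its difference was -5.67 ± 0.23 on the log2 scale at ZT2, or 50.9-fold lower with vancomycin, and 0.097 ± 0.20 at ZT14, smaller than its technical error. Lhfpl1 read 3309 ± 331, 104 ± 10.7, 2432 ± 243 and 2052 ± 205 in the same order of arrays. Its difference was -4.84 ± 0.21 at ZT2 (28.6-fold lower) and -0.19 ± 0.20 at ZT14, again within the technical error. Wnt10a read 549 ± 55.0, 35.6 ± 4.41, 1005 ± 101 and 742 ± 74.3, which gave -3.79 ± 0.23 at ZT2 (13.8-fold lower) and -0.38 ± 0.20 at ZT14 (1.30-fold lower). With normexp the ZT2 differences of these genes were -4.35, -4.24 and -2.49. In kidney RNA as a whole, fewer cells that express a gene and less of its RNA per cell cannot be told apart.

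**Figure D1:**
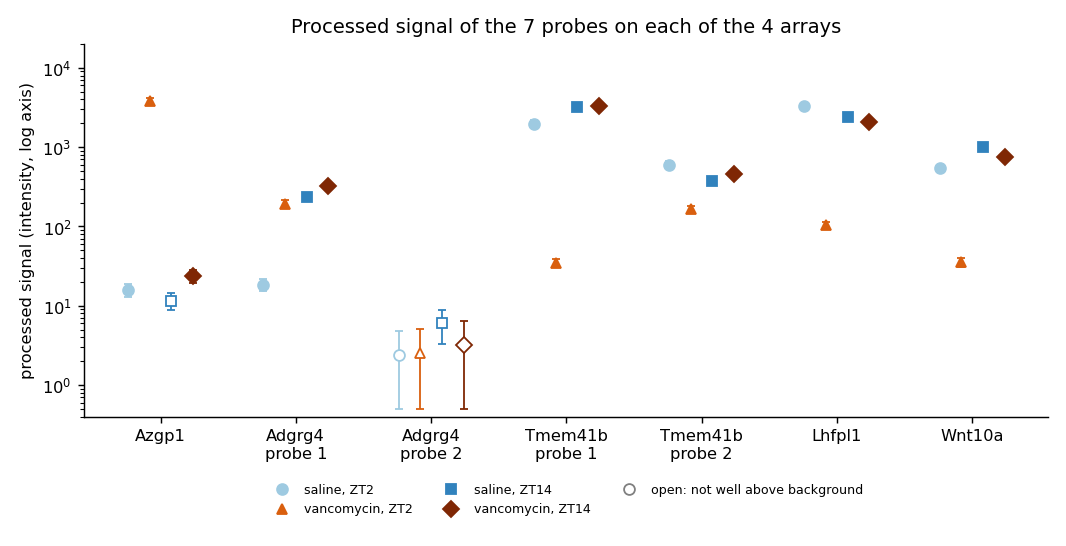
Processed signal (intensity, log axis) of each of the 7 probes on the 4 arrays, with the scanner software's error for each spot; where that error is as large as the signal the lower bar ends near the bottom of the axis, and open symbols were not well above background. The vancomycin ZT2 array stands apart for Azgp1 (3802), Tmem41b probe 1 (35.0), Lhfpl1 (104) and Wnt10a (35.6), and the saline ZT2 array for Adgrg4 probe 1 (18.4).

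The pair of Tmem41b probes moved the same way at ZT2 and by unequal amounts. Probe 2 read 600 ± 60.0 with saline at ZT2, 166 ± 16.9 with vancomycin at ZT2, 378 ± 37.9 with saline at ZT14 and 460 ± 46.1 with vancomycin at ZT14. Vancomycin at ZT2 was again the lowest array, with a difference from saline of -1.69 ± 0.21, or 3.23-fold lower. The change of probe 1 minus that of probe 2 was -3.98 ± 0.31 at ZT2, which is far beyond the technical error. At ZT14 probe 2 differed by 0.34 ± 0.20 and the probes by no more than the technical error (-0.24 ± 0.29). The probes also went apart between the saline arrays, where ZT14 minus ZT2 was 0.38 ± 0.20 for probe 1 and -0.97 ± 0.20 for probe 2. The mean over both probes gave -3.68 at ZT2. The probes share the RNA of each array and are not replicates.

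Across the array, 6761 genes with an ordinary symbol had 2 or more probes well above background on both ZT2 arrays. The brightest probe passed 2-fold in 154 of them, and in 135 of these the second brightest probe changed in the same direction, in 79 by 2-fold or more (51.3%). The ratio of the second change to the first was at or below that of Tmem41b in 25.3% of the 154. Only 4 of these genes were past 8-fold by the brightest probe, and for Tmem41b and 2 others of them, Cwc22 (-3.31 and -2.88) and Tgfb2 (-3.43 and -3.16), the second probe was past 2-fold in the same direction. The exception was Naaladl2, with -3.90 and 0.46. Cwc22 and Tgfb2 were named after their values were seen. For Azgp1, Lhfpl1 and Wnt10a, with 1 probe each, the array offers no such comparison.

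**Figure D2:**
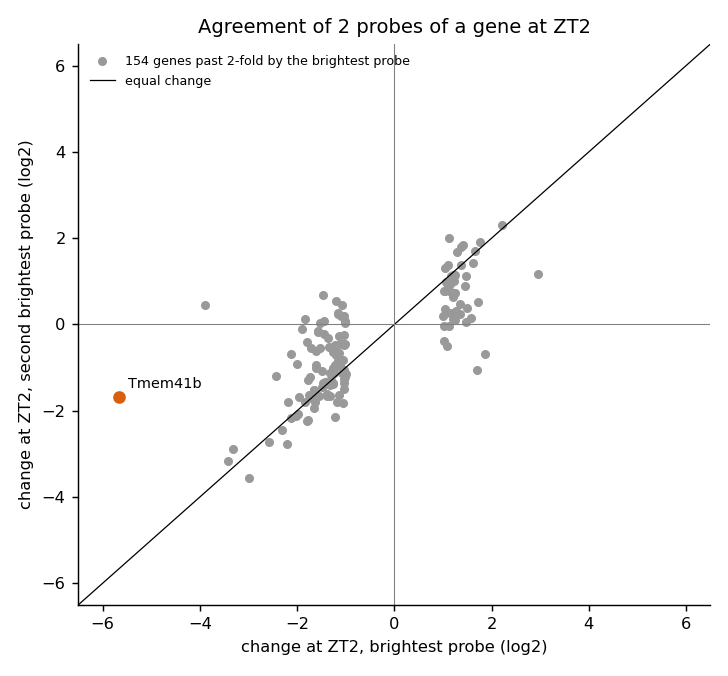
Vancomycin minus saline at ZT2 (log2) by the brightest probe (horizontal axis) and the second brightest probe (vertical axis) of the 154 genes past 2-fold by the brightest; the line marks equal change. Tmem41b (-5.67 and -1.69) lies on the same side for both probes and off the line of equal change.

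By size of the ZT2 change among 14215 genes with an ordinary symbol that were well above background on both ZT2 arrays, Azgp1 was first, Tmem41b the fourth, Lhfpl1 the sixth, Wnt10a the ninth and Adgrg4 number 14. Among all 21244 entries measured on both arrays, their places were 1, 4, 6, 22 and 33. These entries include unnamed transcripts and named genes with a hyphen in the symbol, such as H2-Eb1, which the ordinary symbols leave out. Among the genes that were lower, Synpr, a synaptic vesicle gene, stood just above Tmem41b with -6.95, and Naaladl2 (-3.90) and Cyp2b9 (-3.74), a cytochrome P450 gene, stood on either side of Wnt10a. Among those that were higher, Cyp21a1, a steroid enzyme gene, followed Azgp1 with 5.39, and Adgrg4 stood between Cdk14 (3.59), a cyclin-dependent kinase gene, and Dlk1 (3.52). All 5 genes passed 2-fold at ZT2, where 1344 of 23082 genes did (5.82%), and all 5 passed 10-fold, where 77 genes did (0.334%). The choice of the genes fixed these counts, and nothing is read from them.

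At ZT14, which did not enter the choice, 1 of the 5 genes passed 2-fold, against 1067 of 23975 genes (4.45%). That gene was Azgp1, with 1.08 ± 0.43 and with saline not well above background. Its difference fell under 2-fold with normexp (0.28) and with a pseudocount (0.58). The count of 1 of 5 thus depended on how dim signals were treated, and nothing is read from its contrast with all genes. The other 4 had differences of -0.38 to 0.51. Signs were the same at both times for Azgp1, Adgrg4, Lhfpl1 and Wnt10a and opposite for Tmem41b, and the ZT14 differences of Lhfpl1 and Tmem41b were within the technical error. Whether the effect of vancomycin differed between the injection times could not be tested with 1 array per group.

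**Figure D3:**
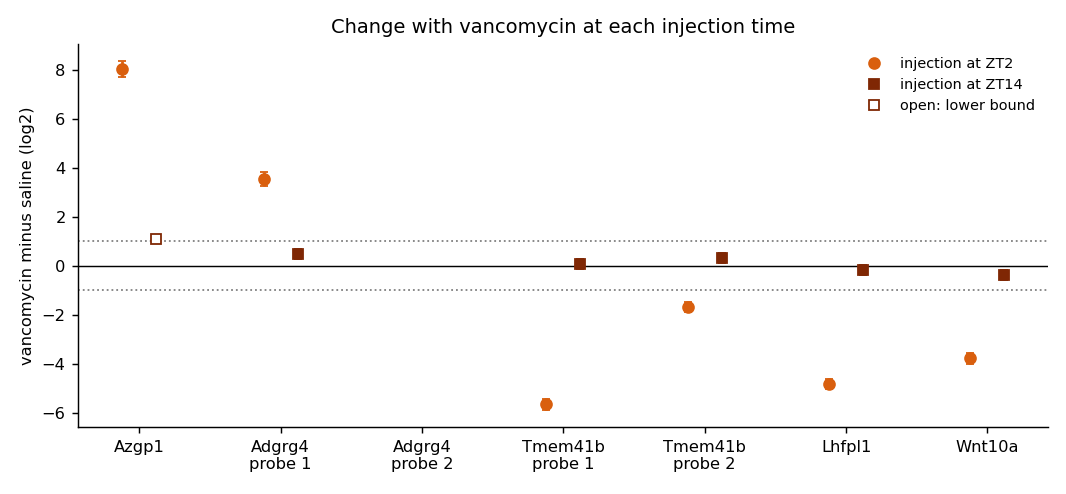
Vancomycin minus saline (log2) of each probe at ZT2 (circles) and ZT14 (squares), with the technical error of the 2 spots. Dotted lines mark 2-fold, and probe 2 of Adgrg4 has no point because it was not well above background. The open square, drawn as a lower bound, is the measured ZT14 difference of Azgp1, with saline not well above background. Its error of 0.43 is not drawn. All ZT2 points lie past 2-fold, from -5.67 to 8.06, whereas the filled ZT14 points lie between -0.38 and 0.51.

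**Figure D4:**
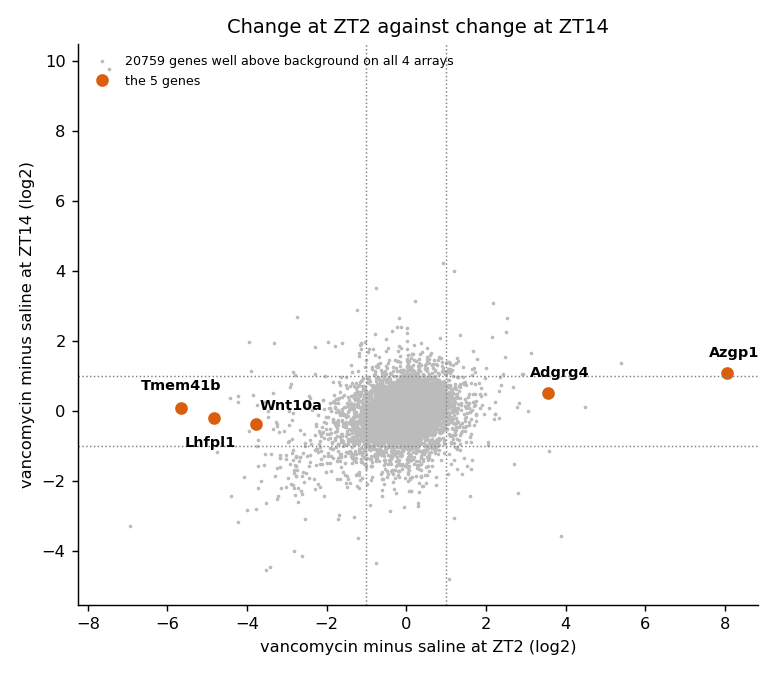
Vancomycin minus saline (log2) at ZT2 (horizontal axis) and ZT14 (vertical axis) for 20759 genes well above background on all 4 arrays (grey) and the 5 genes (orange). For Azgp1, saline at ZT14 was not well above background. The 5 genes lie far out along the ZT2 axis and, apart from Azgp1 at 1.08, within 2-fold on the ZT14 axis.

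Comparison of the injection times within a treatment showed the same arrays standing apart. With saline, 1 of the 5 genes passed 2-fold between ZT14 and ZT2, against 11.8% of genes, and that was Adgrg4. With vancomycin, 4 of the 5 passed, against 12.7% of genes. These were Azgp1, with a ZT14 minus ZT2 difference of -7.74 ± 0.30, and Tmem41b, Lhfpl1 and Wnt10a, with 6.14 ± 0.23, 3.90 ± 0.21 and 3.97 ± 0.23. Adgrg4 differed by 0.32 ± 0.21. Each of these comparisons uses a ZT2 array that also entered the choice of the genes.

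Measured from the median of the other 3 arrays, the distance of the array that stood apart was 8.06 for Azgp1, -3.55 for Adgrg4, -6.05 for Tmem41b, -4.08 for Lhfpl1 and -3.97 for Wnt10a, and the other 3 arrays spanned 1.08, 0.51, 0.47, 0.94 and 0.56. The same measure was taken over all genes as background. Of 20759 genes well above background on all 4 arrays, 118 had an array 8-fold or more from the median of the rest, and in 10 of them (0.0482%) the rest lay within 2-fold of each other. Adgrg4, Tmem41b, Lhfpl1 and Wnt10a were 4 of the 10, a count that their selection on the ZT2 arrays bears on and from which nothing is read. The array at the extreme was vancomycin at ZT2 in 50 of the 118 genes, saline at ZT2 in 31, vancomycin at ZT14 in 19 and saline at ZT14 in 18. At 2-fold or more it was vancomycin at ZT2 in 1150 of 3074 genes (37.4%), low in 930 of them and high in 220. The direction seen for Tmem41b, Lhfpl1 and Wnt10a was thus the more frequent one on that array.

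The spots themselves carried no outlier flag and were not saturated on any array. The local background around them was 54.0 to 61.0 intensity units, and the SD of the pixels within a spot was 9.0% to 22.1% of its mean. Among the spots within 2 rows and 2 columns of each probe (11 to 15 well above background on both ZT2 arrays), the median ZT2 change was between -0.10 and 0.27. No such neighbour was past 2-fold, save that the spots of Azgp1 and of probe 2 of Tmem41b lay 2 rows and 1 column apart and were each other's neighbours. They changed in opposite directions.

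Most genes next to the 5 on the chromosome stayed within 2-fold. Within 250 kb in mm9, 45 genes with an ordinary symbol could be compared at ZT2, and 3 of them (6.67%) were past 2-fold at ZT2, near the 5.82% of all genes. These were Cyp3a13, a cytochrome P450 gene 95.8 kb from the Azgp1 probe and higher by at least 2.22, Nrip3, 215 kb from that of Tmem41b and higher by 1.19, and Wnt6, a Wnt ligand gene 19.2 kb from Wnt10a and lower, with a bound of -1.09. Cyp3a13 and Wnt6 thus went the way of the gene beside them and Nrip3 the opposite way. The medians of the neighbours were -0.10 for Azgp1, -0.37 for Adgrg4, 0.13 for Tmem41b, 0.55 for Lhfpl1 and -0.054 for Wnt10a. Only 3 and 2 neighbours stand behind the medians of Adgrg4 and Lhfpl1.

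**Figure D5:**
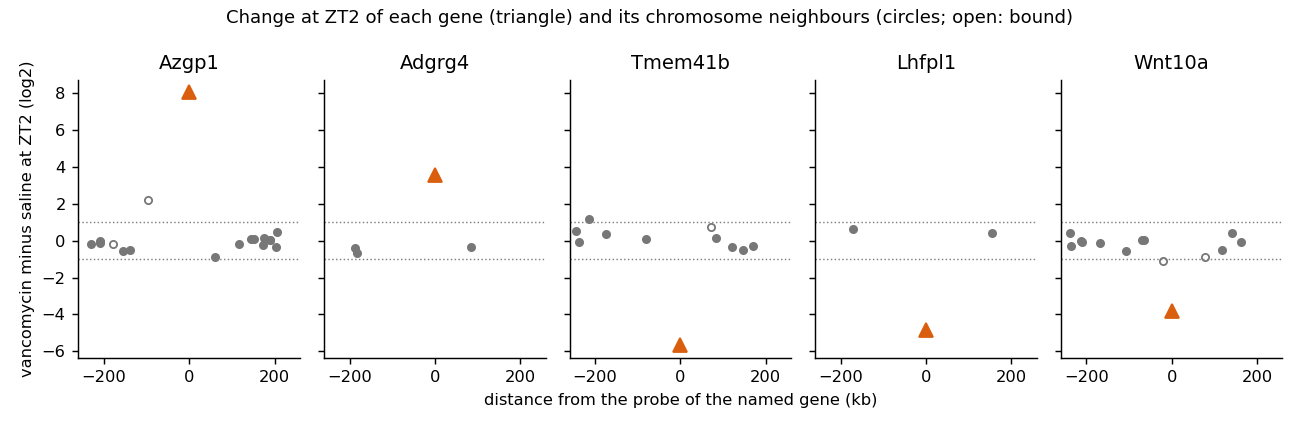
Vancomycin minus saline at ZT2 (log2) against the distance in kb from the probe of each of the 5 genes (triangles) for genes within 250 kb (circles; open circles are bounds); dotted lines mark 2-fold. Of the 45 neighbours, 3 lie past 2-fold, and the largest of these changes is at least 2.22.

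Of 9 genes of proteins with an MHC class I-like fold, or of their light chain, Azgp1 was the 1 past 2-fold at ZT2. The light chain gene B2m differed by 0.31, and Fcgrt, the neonatal Fc receptor gene, by -0.67. The median of the 8 genes other than Azgp1 was -0.097, against -0.00059 over all genes. At ZT14 1 of the 7 genes other than Azgp1 that could be compared was lower, against 2.85% of all genes lower. That was Cd1d1, which presents lipids to T cells, with -1.18. Genes of lipolysis in fat were lower in 2 of 10 cases, against 3.86% of all genes lower, and higher in 0. These were Adrb3, the beta-3 adrenergic receptor gene (-1.17), and Plin1, a lipid droplet coat gene (-1.23). The second brightest Plin1 probe gave -0.62, under 2-fold, and Plin1 is also on the list of fat cell markers below. The median of the lipolysis genes was -0.037 at ZT2 and 0.071 at ZT14, when 0 of 8 were past 2-fold. The lipase genes Lipe and Pnpla2 differed by 0.32 and -0.27 at ZT2.

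Among adhesion receptors of subfamily G, Adgrg4 itself was higher at ZT2. Of the 5 others that could be compared, 0 were higher, against 1.96% of all genes, and 1 was lower, against 3.86%. That was Adgrg2, known from the epididymis, which had differences of -1.24 at ZT2 and of -1.79 at ZT14. The median of the subfamily without Adgrg4 was 0.24 at ZT2 and 0.22 at ZT14. The other adhesion receptor genes on the list passed 2-fold in 0 of 17 cases at ZT2 and 0 of 16 at ZT14, with medians of -0.11 and -0.15.

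The relatives of Tmem41b stayed within 2-fold. Tmem41a, Tmem64 and Vmp1, which share its VTT domain, differed by -0.13, -0.074 and 0.022 at ZT2 and by -0.021, -0.27 and 0.17 at ZT14. Vmp1 encodes the other protein of this family with a known part in autophagosome formation. Of 21 genes that build the early autophagosome membrane, 0 were past 2-fold at either time, with medians of -0.027 and -0.14 against -0.00059 and 0.0093 over all genes. Among them the lipid scramblase gene Atg9a differed by 0.11 and 0.39 and the lipid transfer gene Atg2a by -0.17 and -0.26. In the LHFPL family, 0 of the 3 members other than Lhfpl1 that could be compared at ZT2 were past 2-fold, against 5.82% of all genes. Lhfpl2 and Lhfpl4 differed by 0.080 and -0.18, and at ZT14 0 of the 5 members other than Lhfpl1 were past 2-fold.

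Of the Wnt ligand genes, 12 of 19 were clear of background on 1 array or more, and 2 of the 11 tested at ZT2 were lower by 2-fold or more, Wnt10a and Wnt6. Without Wnt10a, which was selected on that value, 1 of 10 was lower, Wnt6 by its bound, against 3.86% of all genes. The median of those 10 was -0.28 at ZT2, against -0.00059 over all genes, and with Wnt10a it was -0.48. At ZT14 0 of 12 ligand genes were past 2-fold, with a median of -0.094. Wnt4 and Wnt9b, ligands with known parts in nephron formation, differed by -0.047 and -0.080 at ZT2. Among receptors and secretion factors 1 of 16 was lower at ZT2, against 3.86% of all genes. That was Fzd9, a Frizzled receptor gene, with -1.37 at ZT2 and 0.063 at ZT14. Secreted inhibitors of the pathway were lower in 2 of 10 cases at ZT2, against 3.86% of all genes. Their median was -0.56, against -0.00059 over all genes. The inhibitors that were lower were Sfrp4 with -3.26 and Sfrp5 with -1.61. At ZT14 these differed by -0.36 and 0.052, and 0 of 11 inhibitors were past 2-fold. Target genes of the pathway were past 2-fold in 0 of 10 cases at ZT2, with a median of 0.12. Lef1 differed by 0.77 and Ccnd1 by 0.11, while Axin2 was not well above background on either ZT2 array. At ZT14 1 of 11 target genes, Lgr5, was higher by 1.19, with saline not well above background, against 1.6% of all genes higher.

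Markers of other cell types moved on the ZT2 arrays, and their part in the changes of the 5 genes was not tested. For adrenal cortex, 5 of 7 measured markers were higher with vancomycin at ZT2, against 1.96% of all genes, and 4 of 7 at ZT14, against 1.6%, with list medians of 2.94 and 1.05. Their summed signal, in multiples of the array's 75th percentile, was 1.03 with saline at ZT2, 5.95 with vancomycin at ZT2, 1.13 with saline at ZT14 and 1.58 with vancomycin at ZT14. Vancomycin at ZT2 was the highest array. The measured markers within 2-fold at ZT2 were Nr5a1 (0.31) and Akr1b7 (0.56). Cyp11b2 and Mc2r were not well above background on any array. For adrenal medulla, 2 of 6 markers were higher at ZT2, against 1.96% of all genes, Chga by at least 5.61 and Chgb by at least 5.91. The measured or bounded markers within 2-fold at ZT2 were Th (0.78), Dbh (a bound of 0.73), Pnmt (0.54) and Slc18a1 (-0.62). At ZT14 3 of 6 were higher, against 1.6% of all genes. These were Dbh (1.02), Chga (2.44) and Chgb (2.51), all bounds with saline not well above background. The summed signal of that list was 13.3, 11.1, 9.10 and 7.82 in the same order, of which the transporter gene Slc18a1 alone made up 75.5% to 97.1%. Without Slc18a1 the sum was 0.39 with saline at ZT2, 2.73 with vancomycin at ZT2, 0.38 with saline at ZT14 and 0.56 with vancomycin at ZT14, so that vancomycin at ZT2 was the highest array. Phox2a was not well above background on any array.

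Fat cell markers were lower in 5 and higher in 2 of 9 cases at ZT2, against 3.86% and 1.96% of all genes, with a median of -1.23. The brown fat genes Ucp1 (4.01, with saline not well above background) and Cidea (1.58) were the 2 that were higher. The summed signal of all 9 fat cell markers was 42.8 with saline at ZT2, 20.4 with vancomycin at ZT2, 9.15 with saline at ZT14 and 10.7 with vancomycin at ZT14. Without Fabp4, which made up 46.3% to 93.3% of it, the sum was 22.9, 8.80, 0.72 and 0.71 in that order. Hepatocyte markers had 1 of 6 higher, the albumin gene Alb with 1.75, and 1 of 6 lower at ZT2, beside the same shares of all genes, and Ahsg and Cyp7a1 were not well above background on any array. Their summed signal was 4.16, 4.54, 6.69 and 3.27. Urothelium markers had 1 of 7 lower at ZT2, against 3.86% of all genes lower, and 3 of 7 higher at ZT14, against 1.6% higher. Their summed signals were 5.81, 3.33, 2.81 and 5.83. The markers of proximal tubule, distal nephron and podocyte were past 2-fold in 0 of 16 cases at ZT2. Some genes of smooth muscle and connective tissue were picked after their values were seen, from those past 2-fold at ZT2 by the brightest probe. The second probe was under 2-fold for Acta2 (-1.79 and -0.40), Tpm2 (-2.01 and -0.92), Col1a2 (-1.23 and -0.47) and Col3a1 (-1.35 and -0.52). For Mrvi1 (-1.10 and 0.19) it went the other way. In 5 others of those picked both of the brightest probes were lower by 2-fold or more. Of all 154 genes past 2-fold by the brightest probe, 79 (51.3%) had both past 2-fold in the same direction. Genes of these tissues that stayed within 2-fold could not be picked, so nothing is read from this count. The smooth muscle genes Cnn1 and Myh11 had -2.57 and -1.55 by the brightest probe, and the matrix genes Col1a1, Eln and Postn had -1.83, -1.79 and -1.68. At ZT14 these 5 genes had differences of -0.66, -0.46, -0.26, -0.82 and 0.37.

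The genes with the most similar pattern over the 4 arrays, by the root mean square difference of centred log2 values among 15474 genes, differed between the 5. For Azgp1 they included the olfactory receptor gene Olfr1085 (0.97) and the noncoding RNA gene Fendrr (0.98), each well above background on 1 array. For Adgrg4 they were Klf1, an erythroid transcription factor gene (0.33), Catsperg1, a sperm ion channel gene (0.41), and Tmem242 (0.44). Klf1 was well above background on all 4 arrays and had differences of 2.78 at ZT2 and of 0.13 at ZT14, whereas Catsperg1 was not well above background on the ZT2 arrays.

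For Tmem41b the nearest were Padi4, an arginine deiminase gene of neutrophils (0.45), Wnt10a (0.85) and Lhfpl1 (0.90). For Lhfpl1 they were Ccdc150 (0.28), Wnt10a (0.51) and Padi4 (0.57). Padi4 was lower at ZT2, with a bound of -4.44, and differed by -0.54 at ZT14. For Wnt10a the nearest were Lvrn, an aminopeptidase gene (0.15), and the chemokine genes Ccl4 (0.35) and Cxcl13 (0.36), all well above background on the same 3 arrays and not with vancomycin at ZT2. The ZT2 bounds were -1.30 for Lvrn and -1.47 for Cxcl13, and that for Ccl4 was just under 2-fold. Olfr1085, Fendrr, Catsperg1, Padi4, Ccdc150, Lvrn, Ccl4 and Cxcl13 each had at least 1 array not well above background, so their distances and places rest in part on such signals. The ZT2 change of Ccdc150 was a bound of -2.14. A distance over 4 values describes these arrays and says nothing of shared function.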

How the data were processed

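Kidney RNA was hybridized to 4 single-colour Agilent arrays, 1 per group. Per the file headers, images were read by Feature Extraction 10.7.1.1 (the submitters' processing notes name 9.5.1.1), and the deposited processed signal is an intensity with background subtracted and trends across the array removed, with no normalization between arrays. The authors' deposited table holds linear intensity values with the same median, 35.2, in each column. They correlated with the log2 processed signal at r of 0.9998 or more within each array, across probes, and served as an alternative. Their exact normalization is not given in the sources used here.

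From the log2 of the processed signal, the 75th percentile of the same array was subtracted, flagged spots were left out and spots of a probe averaged. A probe needed 50% of its spots well above background. A gene was represented by its brightest probe among those well above background on at least 1 array (24638 genes). Where 1 array of a pair was dim, the higher of its signal and the lowest signal well above background was used, giving a bound. Where its own signal was the higher, that bound equals the measured difference and is not a firm limit. A change of 2-fold counted as past the threshold, with no test. Arrays give no read depth, and their number limits the precision. Normexp (offset 50) and quantile normalization used limma 3.58.1. Functions were tested on simulated data. Alternatives were median centring, quantile normalization, normexp, the authors' values, a pseudocount of 16, other filters and the mean over probes. Named genes were the 5 genes, 3 nearest patterns each, rank neighbours, and up to 3 genes per list and time past 2-fold. Others are values for background. Some genes that this rule or the lists name are not reported here. The genes and lists were chosen with earlier results of these data known.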

Additional observations from a re-analysis of the deposited data

Results flagged for a closer look

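Several named genes had differences of opposite sign with vancomycin at the 2 injection times, and of these Cdk14 and Naaladl2 were past 2-fold at both. In each case 1 array per group stands behind each value, and the difference between the times was not tested. Tmem41b differed by -5.67 at ZT2 and 0.097 at ZT14, and the ZT14 value lay within the technical error of the spots. Cdk14 differed by 3.59 and -1.14, and Naaladl2 by -3.90 and 1.13. The second brightest probe of Naaladl2 gave 0.46 at ZT2, so its ZT2 direction rests on the brightest probe. The ZT14 values of the remaining genes were far under 2-fold, with Cyp2b9 at -3.74 and 0.17, Fzd9 at -1.37 and 0.063, and Sfrp5 at -1.61 and 0.052.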

How the results depend on the processing

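The direction of all 5 genes at both times, and the array that stood apart for each, were the same under every alternative that gave a value. Keeping only probes clear of background on every array left no value for Azgp1. The ZT2 differences ranged from 5.68 to 8.09 for Azgp1, 1.77 to 3.59 for Adgrg4, -5.67 to -3.68 for Tmem41b, -4.84 to -4.24 for Lhfpl1 and -3.79 to -2.49 for Wnt10a. The ZT14 difference of Azgp1 fell under 2-fold with normexp (0.28) and with a pseudocount (0.58). Counts of all genes past 2-fold depended on how dim signals were treated; quantile normalization, median centring, the authors' values and the mean over probes kept them within 1.5 times. Against 453 higher and 891 lower at ZT2 and 384 higher and 683 lower at ZT14, there were 132, 332, 110 and 256 with normexp, 211, 543, 181 and 449 with a pseudocount, and 2385, 2072, 1449 and 1715 with no filter on dim probes. With that stricter filter, 276 were higher at ZT2 and 228 at ZT14. The family and pathway lists hold the 5 genes, so their choice fixed part of the ZT2 counts of these lists. Summed over the lists, the 2 genes higher at ZT2, Azgp1 and Adgrg4, became 5 with the mean over probes or no filter and 1 with the stricter filter. The 10 lower at ZT2 became 4 with normexp. The 2 higher at ZT14 became 0 with normexp, a pseudocount or the stricter filter, and the 2 lower at ZT14 became 0 with normexp and 4 with no filter. No paired analysis was possible because each group had 1 array and no comparison had a test.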

Other observations

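Besides Adgrg4, Tmem41b, Lhfpl1 and Wnt10a, 6 entries had 1 array 8-fold or more from the median of the others while the others lay within 2-fold. They were found by that rule after the values were seen. Low on the vancomycin array at ZT2 were H2-Eb1, an MHC class II gene, with -4.37, and Gm10734 with -3.00. On the saline array at ZT2, Klf1 was low with -3.43 and Nov, a matricellular protein gene, high with 3.27. Igf2bp1, an RNA-binding protein gene, was low on the saline array at ZT14 with -4.24, and 5430410E06Rik on the vancomycin array at ZT14 with -3.58.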
